A study of Mus musculus with 18 samples.

Results

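The 43064 regions described here are stretches of the mouse autosomes that carried the histone mark H3K4me3 outside protein-coding genes, at a middle distance from them. Peaks of all 9 H3K4me3 libraries on chromosomes 1 to 19 were merged wherever they overlapped, which gave 179043 regions. A region was kept when it touched no protein-coding gene and its distance to the nearest end of one, in the mm10 RefSeq gene table, was 10 to 100 kb. These intergenic regions are 24.1% of the total. The remainder are 72847 regions in a coding gene, 20388 outside genes at under 10 kb and 42744 at over 100 kb. The bounds separate neighbours that are alike: 10.4% of 1513 regions at 9 to just under 10 kb had a peak in all 9 libraries, and so did 10.4% of 1426 regions in the first 1 kb inside the lower bound. At the upper bound the shares were 6.32% of 174 regions just inside and 6.83% of 205 just outside.

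H3K4me3 is trimethylation of lysine 4 on histone H3. It marks the start sites of active and poised genes, above all those in CpG islands, and DNA that carries it is a poor substrate for the enzymes that add new DNA methylation. Away from coding genes the mark lies at starts of noncoding RNAs, at some enhancers, and in male germ cells before birth also over wide intergenic stretches. TET1 is a dioxygenase that oxidises methylated cytosine and also binds chromatin and partner proteins independently of that activity.

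The study profiled prospermatogonia, the male germ cells of the fetal testis, at E17.5 (embryonic days), by CUT&RUN. In this assay a nuclease tethered by the antibody releases the chromatin that bears the mark. All cells carried the Oct4-GFP reporter, were GFP-positive and had been cryopreserved, and each library came from 4000 nuclei. The 3 genotypes, with 3 biological replicates each, were wild type (Tet1+/+, written WT), Tet1 knockout (Tet1-/-, KO) and Tet1HxD/HxD (HxD), an allele whose product lacks catalytic activity; all libraries bear the same batch label. The labels do not say whether a replicate is 1 embryo or a pool, so p-values measure the spread between these libraries. The 9 IgG libraries of the study were not analysed here.

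All 9 libraries had a peak within 1 kb of the Tet1 start site, which does not test the alleles, since the labels do not say where they differ from wild type. The peak lists held 48468 to 123424 autosomal peaks per library, most in WT replicate 3 and fewest in HxD replicate 2, and sequencing depth was not analysed here. Among 8 germ cell identity genes, 5 to 8 per library had a peak within 1 kb of the start site. Markers of other testis cells were marked as well: 3 to 5 of 5 Sertoli genes, 7 to 9 of 10 Leydig and interstitial genes and 5 to 6 of 8 endothelial and blood genes, with Hsd3b1, Ptprc and Tie1 at no peak in any library. Since H3K4me3 also marks poised promoters, these counts do not measure the share of other cells, and their part in the results was not tested.

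The sequences below show the kinds of start site that lie in these regions, since the noncoding starts turned out to differ in how well their regions were kept. Each is the RefSeq window of 250 bases before to 50 bases after the start of a long noncoding RNA (lncRNA), build GRCm38.p6, read 5′ to 3′ along the RNA's strand, with every CG dinucleotide in capitals. The first 3 lie in regions marked in all 9 libraries: Mirc35hg (chr6:30174076-30174375, minus strand), Chaserr (chr7:73558346-73558645, minus strand) and E130102H24Rik (chr4:101356199-101356498, minus strand).
Mirc35hg: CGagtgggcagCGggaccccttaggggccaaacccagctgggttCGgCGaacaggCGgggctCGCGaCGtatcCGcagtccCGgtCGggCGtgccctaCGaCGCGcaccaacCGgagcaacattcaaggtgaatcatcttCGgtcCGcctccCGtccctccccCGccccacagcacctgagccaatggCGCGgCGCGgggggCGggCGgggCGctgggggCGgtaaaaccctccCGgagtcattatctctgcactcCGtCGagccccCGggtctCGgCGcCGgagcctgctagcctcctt
Chaserr: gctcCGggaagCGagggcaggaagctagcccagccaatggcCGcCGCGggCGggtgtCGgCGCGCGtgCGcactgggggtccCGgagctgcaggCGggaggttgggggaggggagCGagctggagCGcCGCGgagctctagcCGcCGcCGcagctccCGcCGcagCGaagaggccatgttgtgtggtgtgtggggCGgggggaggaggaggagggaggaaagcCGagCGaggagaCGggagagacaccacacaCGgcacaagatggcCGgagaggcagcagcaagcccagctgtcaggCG
E130102H24Rik: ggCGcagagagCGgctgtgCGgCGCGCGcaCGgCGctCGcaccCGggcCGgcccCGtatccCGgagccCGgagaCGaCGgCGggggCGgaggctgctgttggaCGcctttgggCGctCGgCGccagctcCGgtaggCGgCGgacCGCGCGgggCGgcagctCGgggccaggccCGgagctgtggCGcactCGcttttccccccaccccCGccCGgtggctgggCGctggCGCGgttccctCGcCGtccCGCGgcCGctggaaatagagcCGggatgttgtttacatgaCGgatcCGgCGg

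The next 3 lie in or at the edge of regions with a peak in every WT library and in no KO and no HxD library: Gm35148 (chr11:93808306-93808605, minus strand), 5830416I19Rik (chr5:64044723-64045022, plus strand) and Gm40904 (chr13:12925512-12925811, plus strand).
Gm35148: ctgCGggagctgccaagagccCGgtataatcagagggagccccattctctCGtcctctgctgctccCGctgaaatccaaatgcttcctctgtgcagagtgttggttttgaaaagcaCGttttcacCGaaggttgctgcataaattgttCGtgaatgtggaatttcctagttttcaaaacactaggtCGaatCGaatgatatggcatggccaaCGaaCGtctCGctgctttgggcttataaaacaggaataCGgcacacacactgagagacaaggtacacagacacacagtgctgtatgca
5830416I19Rik: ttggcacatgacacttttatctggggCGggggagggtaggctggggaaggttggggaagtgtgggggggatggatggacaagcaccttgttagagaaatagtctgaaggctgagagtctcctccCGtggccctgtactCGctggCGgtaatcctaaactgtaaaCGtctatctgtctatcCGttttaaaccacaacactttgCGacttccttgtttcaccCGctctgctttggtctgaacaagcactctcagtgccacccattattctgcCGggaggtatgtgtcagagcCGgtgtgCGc
Gm40904: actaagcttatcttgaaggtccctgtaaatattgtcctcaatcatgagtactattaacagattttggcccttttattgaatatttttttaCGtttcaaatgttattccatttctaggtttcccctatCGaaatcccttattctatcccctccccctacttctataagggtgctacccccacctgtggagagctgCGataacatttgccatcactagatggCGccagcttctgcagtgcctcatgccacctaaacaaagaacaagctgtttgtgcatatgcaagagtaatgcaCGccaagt

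The windows of the kept set hold 35, 30 and 47 CG dinucleotides, and those of the lost set hold 13, 11 and 5. The ratio of observed to expected CG, which corrects for base composition, was 0.946, 0.826 and 1.07 in the first set and 0.742, 0.524 and 0.398 in the second. These 6 were picked after their values were seen, and over all lncRNA start sites in the regions the difference was much smaller. The median was 7 CG dinucleotides per window for regions in all 9 libraries. For regions in every WT library it was 6 where no KO library had a peak and 5 where no HxD library had one. Gm35148 exceeds the ratio of 0.6 used below to call a start CpG-rich. It was the only such start of 28 in regions of every WT and no KO library.

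Several regions also hold microRNA hairpins, and the mature sequences below belong to those marked in all 9 libraries that share a product or a seed. Capitals mark the seed, bases 2 to 8, which pairs with target RNAs. The hairpins of Mir9-1 (chr3), Mir9-2 (chr13) and Mir9-3 (chr7) give the same miR-9-5p, and Mir193a (chr11) and Mir193b (chr16) give products with 1 seed.
mmu-miR-9-5p: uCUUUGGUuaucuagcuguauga
mmu-miR-193a-3p: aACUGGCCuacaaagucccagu
mmu-miR-193b-3p: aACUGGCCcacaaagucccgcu

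Fewer intergenic regions at 10 to 100 kb were marked in both mutants than in WT. The WT libraries held 20575, 17907 and 28393 of them, the KO libraries 14434, 17884 and 15163, and the HxD libraries 15386, 10019 and 13062. Every mutant library lay below every WT library, although KO replicate 2 fell short of WT replicate 2 by a few regions. The means were 22292 ± 5449.7 in WT, 15827 ± 1818 in KO and 12822 ± 2692 in HxD (SD, n = 3 each), so KO held 0.710 and HxD 0.575 of the WT mean. An exact permutation F test over the 3 genotypes gave p = 0.0179. The two-sided exact permutation test of 3 against 3 gave p = 0.1 for each mutant against WT, the smallest p it allows, and p = 0.3 for KO against HxD. Peaks were also fewer genome-wide, and when every list was limited to its strongest 48468 peaks the ratios became 0.951 and 0.954 with an exact permutation F test p of 0.364. Without any 1 of WT replicate 3, the KO replicates, HxD replicate 2 or HxD replicate 3, the exact permutation F test no longer passed (p = 0.0536 to 0.0714). Here as throughout, fewer marked cells and less mark per cell cannot be told apart.

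**Figure D1:**
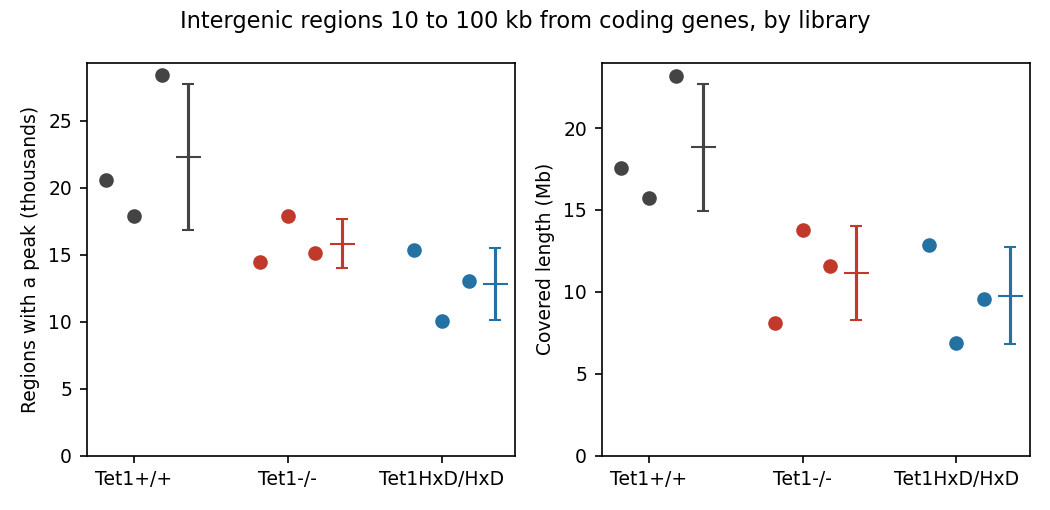
Number of intergenic regions at 10 to 100 kb from coding genes (in units of 1000) and the length they cover (Mb), for each of the 9 libraries; points are libraries, bars the mean and SD of 3. All 6 mutant libraries lie below the 3 WT libraries in both panels, with KO replicate 2 and HxD replicate 1 the closest to WT.

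The covered length fell further than the number. The regions covered 17.6, 15.7 and 23.2 Mb in WT, 8.11, 13.8 and 11.6 Mb in KO and 12.8, 6.89 and 9.59 Mb in HxD. No mutant library reached the lowest WT library. The means were 18.8 ± 3.87, 11.2 ± 2.85 and 9.77 ± 2.98 Mb (SD, n = 3 each), or 0.593 and 0.519 of WT for KO and HxD (exact permutation F test, p = 0.0286; 0.107 without WT replicate 3, 0.0607 without HxD replicate 2, 0.0536 without HxD replicate 3 and 0.05 without KO replicate 3). With lists of equal length the ratios were 0.715 and 0.698, and the same exact test gave p = 0.075.

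As a share of all covered sequence the regions took 21.5% ± 0.511 in WT, 17.6% ± 1.48 in KO (SD, n = 3 each) and 15.4% to 18.9% in HxD, 0.814 of the WT mean (exact permutation F test, p = 0.0464), a call lost without any of the WT replicates, KO replicate 3 or HxD replicate 3 (p up to 0.114). As a share of all regions they stayed closer, between 24.4% and 24.8% in the WT libraries, 22.3% and 24.6% in KO, and 22.5% and 24.7% in HxD (exact permutation F test, p = 0.368). For each region at under 10 kb there were 2.43 ± 0.0987 at 10 to 100 kb in WT, 2.17 ± 0.117 in KO and 2.36 ± 0.117 in HxD (SD, n = 3 each; exact permutation F test, p = 0.0929, and 0.0393 with lists of equal length). Within coding genes the covered length in KO was 0.901 of WT and in HxD 0.792. The ratios fell step by step with distance: 0.680 and 0.558 at under 10 kb, 0.593 and 0.519 for the 10 to 100 kb regions, 0.389 and 0.354 at over 100 kb. The same order held inside the class, where KO covered 0.632, 0.597 and 0.552 of the WT length at 10 to 20, 20 to 50 and 50 to 100 kb, and HxD 0.545, 0.523 and 0.491.

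Most regions were seen in few libraries. Of the 43064, 19723 (45.8%) had a peak in 1 library only and were short, with a median length of 307 bp. At the other end 4400 (10.2%) had a peak in all 9 libraries, with a median merged length of 1793.5 bp. The median fold enrichment over all the regions a library held was 7.13 ± 0.107 for WT, 6.24 ± 0.875 for KO and 6.76 ± 0.154 for HxD (SD, n = 3 each; exact permutation F test, p = 0.161, and 0.00357 without KO replicate 2). The 4400 regions of all 9 libraries have a value in every library, so the strength of their peaks can be compared. Regions that lacked a peak in any library are left out of this set, so it describes only those that were kept.

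Peak strength in these regions fell relative to the strength in genes. The measure was the peak caller's fold enrichment over local background at the summit, the median over the 4400 regions divided by the median over the 17175 coding-gene regions that also had a peak in all 9 libraries. That ratio was 1.04, 0.969 and 1.00 in WT, 0.711, 0.718 and 0.564 in KO and 0.743, 0.678 and 0.823 in HxD. The mutant libraries all lay below the WT libraries, including the 2 that were closest to WT in region number. The means were 1.00 ± 0.0338, 0.664 ± 0.0868 and 0.748 ± 0.0722 (SD, n = 3 each), so the intergenic regions matched genes in WT and stood at 0.663 and 0.747 of that ratio in KO and HxD. With lists of equal length the values were 0.663 and 0.751, and leaving out single libraries moved them only between 0.641 and 0.715 and between 0.730 and 0.787.

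In WT and KO the 2 parts of the ratio varied more between libraries than the ratio itself. In gene regions the median fold enrichment was 10.5 ± 1.62 for WT, 13.7 ± 2.65 for KO and 11.3 ± 0.984 for HxD, and in the intergenic regions it was 10.5 ± 1.66, 8.99 ± 1.64 and 8.44 ± 0.786 (SD, n = 3 each). Neither part differed beyond the spread of the libraries for either mutant (two-sided exact permutation tests, p = 0.2 to 0.6). The fall in the ratio was smaller at under 10 kb, where KO and HxD stood at 0.723 and 0.801 of WT, and larger at over 100 kb, at 0.590 and 0.703. Inside the class it was 0.682, 0.662 and 0.645 of WT in KO and 0.766, 0.754 and 0.725 in HxD from the nearest to the farthest bin. The median covered length relative to gene regions was likewise 0.789 ± 0.0126 for WT, 0.589 ± 0.0578 in KO and 0.617 ± 0.0597 in HxD (SD, n = 3 each).

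**Figure D2:**
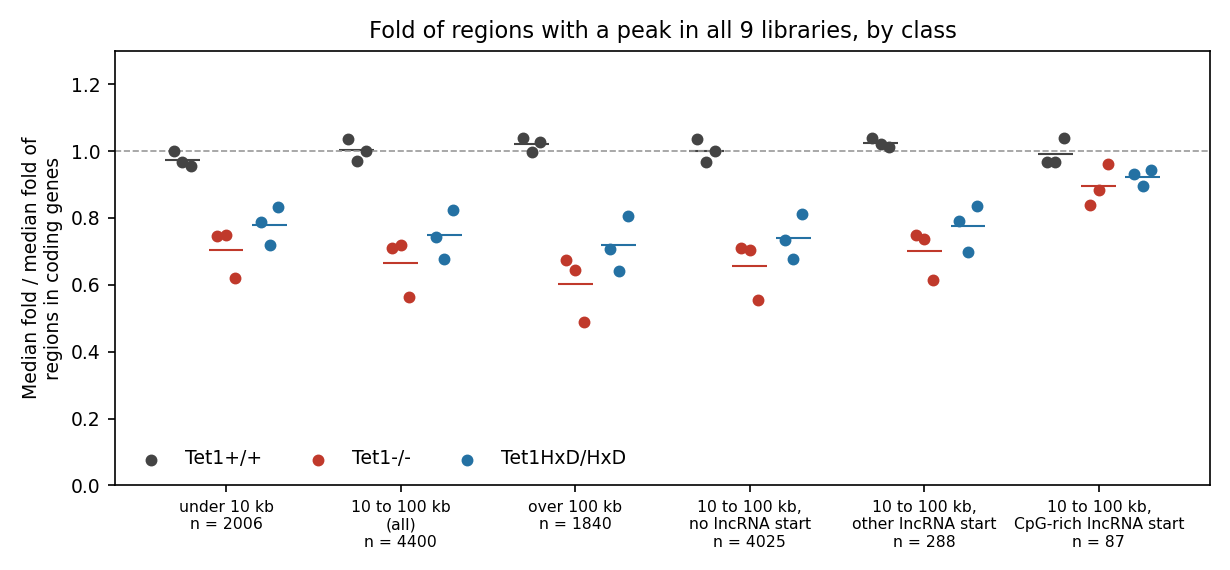
Median fold enrichment of regions with a peak in all 9 libraries, divided by the median of coding-gene regions of the same library, for 6 classes of region; each point is a library and each short line the mean of 3. WT libraries sit near 1 in every class, and the mutant libraries lie lower for the 10 to 100 kb regions (0.564 to 0.823) and nearest to WT for the 87 regions at a CpG-rich lncRNA start (0.839 to 0.961).

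Regions that hold a CpG-rich lncRNA start stayed nearer to WT. A start was called CpG-rich when its 300-base window had an observed to expected CG ratio of at least 0.6. The 87 regions of this kind with a peak in all 9 libraries had a relative fold enrichment of 0.967, 0.967 and 1.04 in WT, 0.839, 0.882 and 0.961 in KO and 0.930, 0.895 and 0.944 in HxD. The mutants stood at 0.902 and 0.931 of WT, a smaller fall than at the 288 regions with another lncRNA start (0.684 and 0.758) or the 4025 with none (0.655 and 0.739). The CpG-rich set divided by the set with no lncRNA start gave 0.932, 1.00 and 1.04 in WT, 1.18, 1.25 and 1.74 in KO and 1.27, 1.32 and 1.17 in HxD. The 3 WT values lay below all 6 mutant values. This grouping was made after the data had been seen.

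Few of these intergenic regions are lncRNA starts at all. A total of 930 (2.16%) hold one, 8.52% of the regions in all 9 libraries and 0.406% of those in 1 library. Of the regions with a peak in every WT and every KO library 7.75% hold one, against 1.60% of those that every WT library and no KO library held. The kept regions were also longer, with a median merged length of 1693 bp against 942 bp. The part of region length in these shares was not tested. Among the 461 lncRNA start sites in the regions of all 9 libraries 20.8% were CpG-rich. That compares with 8.05% of 87 start sites in regions of 1 library, 1.60% of 2680 start sites at this distance that lie in no region, and 48.9% of coding start sites.

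Chaserr, a lncRNA upstream of Chd2 that is known to restrain that gene, shows a region that was not shorter in the mutants on average. Its region (chr7:73556706-73559823, 14960 bp from Chd2) covered 1752, 1208 and 2563 bp in WT, 2533, 2880 and 3118 bp in KO and 2762, 2268 and 2584 bp in HxD. The mean was 1841 bp in WT and 2844 bp in KO, and the ranges overlapped only in that WT replicate 3 exceeded KO replicate 1. The differences from WT were not called (limma, adjusted p = 0.0818 in KO and 0.22 in HxD), although the KO difference passed once every library's mean over all regions had been subtracted (limma, adjusted p = 0.0307).

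Mirc35hg, 18805 bp from Nrf1, lies in the longest and most strongly marked of the regions in all 9 libraries (chr6:30172263-30180740). It covered 6542, 6924 and 7535 bp in WT, 6186, 7214 and 7458 bp in KO and 7832, 7180 and 6026 bp in HxD. In covered length the 3 genotypes overlapped fully. The fold enrichment of the Mirc35hg region was 10.7, 8.76 and 14.4 in WT, 10.3, 26.8 and 44.5 in KO and 24.4, 30.7 and 28.8 in HxD. Every HxD library thus exceeded every WT library in fold enrichment, though neither mutant was called. Dleu2, the host of miR-15a and miR-16-1, had the second longest such region (chr14:61680101-61687978), with 5192, 4765 and 6777 bp in WT, 2367, 6654 and 7165 bp in KO and 6542, 4317 and 5786 bp in HxD.

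The region of E130102H24Rik (chr4:101354391-101358522, 57956 bp from Ak4) covered 2264 to 3446 bp in WT, 2698 to 4132 bp in KO and 2681 to 3686 bp in HxD. Its fold enrichment was 10.9, 13.4 and 14.3 in WT, 15.9, 34.4 and 49.3 in KO and 16.4, 18.3 and 20.5 in HxD. At this start site every mutant library exceeded every WT library, though no region was called on fold enrichment.

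The lost set of lncRNA starts lay in shorter regions. The region of Gm35148 (chr11:93807957-93809077, 50166 bp from Utp18) covered 885, 771 and 870 bp in WT and had no peak in the 6 mutant libraries. It entered the limma fit only through the WT libraries, so its p-values are no support and are not given. That of 5830416I19Rik (chr5:64044822-64045604) covered 474, 729 and 348 bp in WT, and that of Gm40904 (chr13:12925471-12927709) 473, 1426 and 1656 bp, again with no peak in any mutant library. Absence here means that no peak was called, and all 3 were chosen for that pattern.

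MicroRNA hairpins lie in 25 of the regions, 34 hairpins in all, and 16 of them in 12 regions with a peak in every library. The Mir193a region (chr11:79709664-79713088) covered 3277, 2109 and 2558 bp in WT, 2534, 2443 and 2510 bp in KO and 2678, 2518 and 2758 bp in HxD. The 6 mutant lengths lay inside the WT range, while the mutant fold enrichments of 15.6 to 26.4 all exceeded the WT values of 6.71, 8.74 and 14.6. Its seed partner Mir193b (chr16:13445815-13449996) covered 2242, 3423 and 3704 bp in WT, 2030, 3763 and 2744 bp in KO and 2708, 2230 and 2959 bp in HxD. At Mir193b the fold enrichments of the 3 genotypes overlapped.

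The 3 loci of miR-9, a microRNA best known from neural progenitors, were all marked in every library. Mir9-1 (chr3:88213273-88216844) covered 2900, 3162 and 3342 bp in WT, 1459, 2867 and 2234 bp in KO and 2169, 2045 and 2370 bp in HxD, so both mutants lay below WT (limma, adjusted p = 0.0965 and 0.109). Mir9-3 (chr7:79504019-79507785) covered 3234, 2712 and 2496 bp in WT, 1361, 2124 and 2206 bp in KO and 2574, 1845 and 1678 bp in HxD. At Mir9-2 (chr13:83737274-83740572, 70195 bp from Mef2c) the WT values of 2067, 2630 and 2412 bp overlapped those of KO (1439, 1943 and 2868 bp) and lay above those of HxD (1656, 1331 and 1234 bp; limma, adjusted p = 0.0968). None of these differences passed the threshold of 0.05. Among the less widely marked hairpins, the region of Mir181a-1 covered 433, 700 and 321 bp in WT and 380 bp in KO replicate 1, with no peak in the other 5 libraries.

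Loss was measured on regions present in every WT library, of which there were 14496. Since these were chosen by their presence in WT, each WT library was also set against the rest: 88.7%, 83.3% and 95.5% of the regions common to the other WT libraries had a peak in WT replicates 1, 2 and 3. The KO libraries held 52.2%, 81.5% and 68.6% of the 14496 and the HxD libraries 79.6%, 55.8% and 71.2%. All mutant libraries lay below the lowest WT value, KO replicate 2 by the least. In coding genes the same KO libraries held 75.7%, 91.7% and 85.9% of the regions common to WT.

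No KO library had a peak in 1497 of the 14496 regions (10.3%; 10.8% over all autosomal regions), and no HxD library in 1573 (10.9%; 10.4% over all autosomal regions). The intergenic regions at 10 to 100 kb thus stood near the genome-wide share in both comparisons, which share the WT libraries. They lay between regions in coding genes (4.55% and 4.64%) or under 10 kb away (8.73% and 9.55%) and those over 100 kb away (25% and 22.1%). In KO the share rose inside the class from 8.85% at 10 to 20 kb to 10.1% and 11.9% in the farther bins, and in HxD it was 10.1%, 10.4% and 12%. Without KO replicate 2 the KO count became 3256, and without WT replicate 2 it became 2665. The HxD count became 3005 without HxD replicate 1, 2370 without HxD replicate 3, and 2387 and 2895 without WT replicates 1 and 2. Each of these leaves fewer libraries to meet the condition. With every list limited to its strongest 48468 peaks the counts were 465 in KO and 302 in HxD.

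Weakly marked regions made up most of the loss. Where the lowest of the 3 WT fold enrichments was under 5, 15.2% of 5085 regions had no peak in KO and 16.4% none in HxD. The shares were 11.5% and 11.9% at 5 to 7.5, 3.48% and 3.37% at 7.5 to 10, and 0.834% and 0.334% of 1199 regions at 10 to 15. At 15 and above 0 of 36 regions were absent from KO and 1 of 36 from HxD. In each band below 15 the share was lower than that of regions over 100 kb from genes, and in each band below 10 it was higher than that of regions under 10 kb.

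The reverse pattern was rarer in the full lists. Of 6696 regions in every KO library 35 had no peak in WT (0.523%; 0.594% over all autosomal regions), and of 7149 in every HxD library 15 had none (0.210%; 0.181% over all autosomal regions). Between the mutants, 143 regions were in every KO and no HxD library (2.14%; 1.47% over all autosomal regions) and 92 in every HxD and no KO library (1.29%; 0.816% over all autosomal regions). Both of the latter shares lie above the genome-wide ones. With lists of equal length the 35 and 15 became 172 and 174, beside losses of 465 and 302, and the 143 and 92 became 91 and 181, so that the larger of the last pair changed sides. Leaving out any KO or HxD library took the 143 to between 225 and 673, and leaving out KO replicate 2 or 3 or any HxD library took the 92 to between 148 and 396. Leaving out any WT or KO library took the 35 to between 53 and 201, and leaving out any WT or HxD library took the 15 to between 23 and 67.

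The share of missing regions varied with the length of the gap between the 2 coding genes that flank a region. In gaps of 50 to 100 kb 8.26% of 3076 regions in every WT library had no peak in KO and 8.62% none in HxD. In gaps of 200 to 500 kb the shares were 10.3% and 10.8% of 3675 regions, in gaps of 500 kb to 1 Mb 13.8% and 13.9% of 1428, and in gaps of 1 Mb or more 17.6% and 16.5% of 1102. The difference between the longest gaps and all those under 200 kb was 8.88 percentage points in KO and 6.93 in HxD. It became 17.2 points without KO replicate 2 and 12.1 without HxD replicate 3, with 13.7 in KO for lists of equal length.

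The libraries themselves show the same shift. Gaps of 1 Mb or more held 8.01%, 7.85% and 7.57% of the regions marked in the WT libraries, 6.27%, 6.42% and 5.82% in KO and 6.32%, 5.38% and 6.98% in HxD. Every WT library lay above every mutant library, with means of 7.81% ± 0.224, 6.17% ± 0.312 and 6.23% ± 0.805 (SD, n = 3 each).

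**Figure D3:**
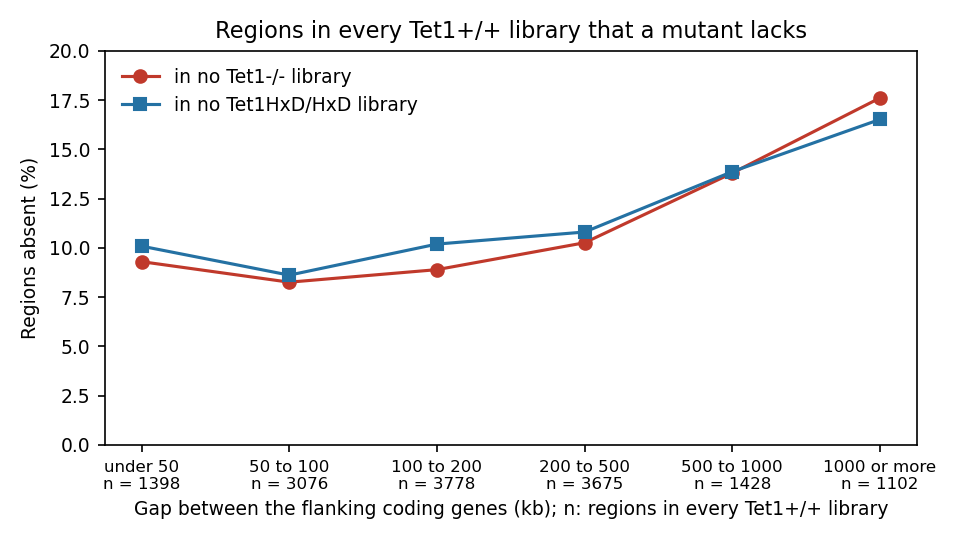
Percentage of regions with a peak in every WT library that had none in any KO library or none in any HxD library, by the length of the gap between the flanking coding genes (kb). The shares stay at 8.26% to 10.8% up to 500 kb and rise to 17.6% in KO and 16.5% in HxD at 1 Mb or more.

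The covered length of each region was then compared with limma over all 78668 autosomal regions with a peak in at least 3 libraries, and p-values were adjusted over all of them by the Benjamini-Hochberg method. Of the 43064 intergenic regions 19752 entered. In KO 2285 of them (11.6%) were shorter than in WT at an adjusted p under 0.05 and 28 were longer (0.142%), against 11.9% and 0.426% of all regions tested. In HxD 1860 (9.42%) were shorter and 6 longer, against 9.47% and 0.0661% of all. The share of shorter regions was thus near the background in both comparisons, while it was 5.64% and 4.46% in coding genes and 25.8% and 20.0% at over 100 kb.

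These counts rest on single libraries, on the scale and on the length of the peak lists. Without KO replicate 1 or KO replicate 3 no region was called shorter or longer in KO, and 296 were called shorter without WT replicate 3, 685 without WT replicate 1 and 1269 without WT replicate 2. In HxD 2 were called shorter without HxD replicate 2, 0 without HxD replicate 3, 455 without HxD replicate 1, 1184 without KO replicate 3 and 375, 961 and 55 without WT replicates 1, 2 and 3. Longer regions numbered 1, 9 and 3 in KO without WT replicates 1, 2 and 3, and 2 in HxD without WT replicate 2 and 0 without WT replicate 1, WT replicate 3 or any HxD replicate. At an unadjusted p under 0.05, 5789 of the 19752 were shorter in KO and 5652 in HxD in the fit of all libraries. Over all 78668 regions tested the counts were 21441 and 21247. Centring each library on its mean left 198 of the 19752 shorter in KO (1.00%, against 0.983% of all regions tested) and 91 longer (0.461%, against 1.33%). In HxD it left 35 shorter (0.177%, against 0.161%) and 4 longer (0.0203%, against 0.102%). With lists of equal length 145 were called shorter and 10 longer in KO, and none in HxD by limma.

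Fold enrichment was compared in the same way over the 25421 regions with a peak in all 9 libraries, of which 4400 are intergenic at 10 to 100 kb. No region was called in any comparison by limma. At an unadjusted p under 0.05, 302 of the 4400 were lower and 104 higher in KO, and 247 lower and 40 higher in HxD. Over all 25421 regions 917 were lower and 3250 higher in KO, and 855 lower and 1026 higher in HxD. The median difference over the 4400 was -0.19 log2 units in KO, against +0.20 over all 25421, and -0.25 in HxD, against 0.01. Without WT replicate 3, 1 region was called in KO.

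The named regions were taken by rules of rank. Those described as present in every library of 1 genotype and in none of another were selected for that pattern, so their values are a description. The longest in WT and missing from KO lay 22162 bp from Tmem163, which encodes a zinc transporter (chr1:127700183-127702131). It covered 1893, 1269 and 1706 bp in WT, no sequence in KO, and 827, 373 and 0 bp in HxD, so WT and HxD did not overlap. The difference was -1623 ± 274 bp in KO (SE by limma). Without the WT libraries this region would not have entered the limma fit, so its p-values are no support and are not given. A region 18676 bp beyond Grik2, the gene of a kainate-type glutamate receptor subunit (chr10:49072999-49075004), covered 1390, 2006 and 1124 bp in WT, none in KO and 1090, 0 and 754 bp in HxD. The same limit holds for the Grik2 region, so its p-values are not given either.

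Another such region lay 14907 bp from Mlycd, the gene of malonyl-CoA decarboxylase (chr8:119377602-119379945). It covered 1281, 1393 and 1847 bp in WT, none in KO and 271, 0 and 700 bp in HxD. A region 82431 bp from G6pd2 (chr5:61892908-61894670) covered 1668, 1555 and 1585 bp in WT, none in KO and 248, 0 and 843 bp in HxD. A second region near G6pd2 (chr5:61851054-61852339) had 1220, 1158 and 1143 bp in WT and no peak in any mutant library. The Mlycd region and the first G6pd2 region would not have entered the limma fit without the WT libraries. Their p-values are therefore no support and are not given. The second G6pd2 region entered the fit only through the WT libraries, so its p-values are no support and are not given.

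The region with the smallest p in HxD lay on chromosome 14 near Gm8220 (chr14:44246919-44249927) and separated all 3 genotypes. It covered 2315, 2503 and 2454 bp in WT, 1533, 1648 and 1550 bp in KO and none in HxD. The difference from WT was -2424 ± 239 bp in HxD (SE; limma, adjusted p = 0.00478) and -847 ± 239 bp in KO (adjusted p = 0.0353), and after centring HxD passed and KO did not (0.000402 and 0.217). A nearby region (chr14:43986172-43987694, 13970 bp from Ang6, a ribonuclease family gene) covered 1333, 989 and 936 bp in WT, 524, 1221 and 1079 bp in KO and none in HxD. Both lie among families of near-identical gene copies, and how the authors treated reads with several matches is not stated, so their values are uncertain. The same holds for regions near Vmn2r74 and Fpr-rs6, receptor genes of the vomeronasal organ, which also had no peak in HxD.

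A region near Thsd7a (chr6:12220901-12223202, 88406 bp away) was reduced in KO and missing in HxD, with 1984, 1338 and 1645 bp in WT, 393, 248 and 0 bp in KO and none in HxD. The mutants did not reach the WT range. Without the WT libraries the Thsd7a region would not have entered the limma fit, so its p-values are no support and are not given. The lowest p in KO belonged to a region 28742 bp from Mucl2 (chr15:103928054-103930915), which covered 2367, 2606 and 2723 bp in WT, 0, 954 and 0 bp in KO and 949, 333 and 340 bp in HxD. A region near Rgs21, a regulator of G protein signalling (chr1:144588610-144591345), covered 2500, 2264 and 2450 bp in WT, 500, 746 and 0 bp in KO and 0, 0 and 825 bp in HxD.

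Some regions were present in every library of 1 mutant and none of the other, among them that of Gm8220 above. Another lay 76355 bp from Sema3e, the gene of a secreted axon and vessel guidance protein (chr5:13947187-13948921), with 1607, 1458 and 1251 bp in WT, none in KO and 1119, 1070 and 1011 bp in HxD. KO was called against WT (-1439 ± 235 bp, SE; limma, adjusted p = 0.0159) and HxD was not (adjusted p = 0.308). In the test of KO against HxD itself no region passed (limma, smallest adjusted p = 0.824, at Gm8220). At an unadjusted p under 0.05, 184 of the 19752 regions were lower and 368 higher in KO, beside 652 and 1527 of all 78668.

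Regions that were longer in the mutants were few. Next to Kat5, the gene of the acetyltransferase TIP60 (chr19:5623821-5625065, 12265 bp away), KO libraries covered 638, 567 and 1055 bp and no other library had a peak. That region entered the limma fit only through the KO libraries, so its p-value is no support and is not given. At Insyn1 (chr9:58454924-58456562) the region covered 284, 0 and 0 bp in WT, 1306, 1246 and 1087 bp in KO and 611, 438 and 611 bp in HxD, each mutant above every WT library (limma, adjusted p = 0.0163 in KO and 0.206 in HxD). A region 48885 bp from Gpc5 (chr14:115039467-115043316) rose from 1525, 2022 and 1470 bp in WT to 2688, 3004 and 3850 bp in KO (limma, adjusted p = 0.0248) and measured 3186, 2674 and 2083 bp in HxD.

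At Nsmce2, which encodes a SUMO ligase of the SMC5/6 complex, a region (chr15:59617936-59618943) had 659, 875 and 654 bp in HxD and no peak in any WT or KO library. It ranked first by limma among longer regions in HxD (729 ± 143 bp, SE). It entered the fit only through the HxD libraries, so its p-value is no support and is not given. In the imprinted Dlk1 domain, a region 34399 bp from Rtl1 (chr12:109527294-109530501) had no peak in WT, 1251, 653 and 3208 bp in KO and 291, 1976 and 352 bp in HxD. Every mutant library thus exceeded WT, but the spread was wide and neither difference was called (limma, adjusted p = 0.0559 and 0.306; 0.0191 in KO after centring).

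**Figure D4:**
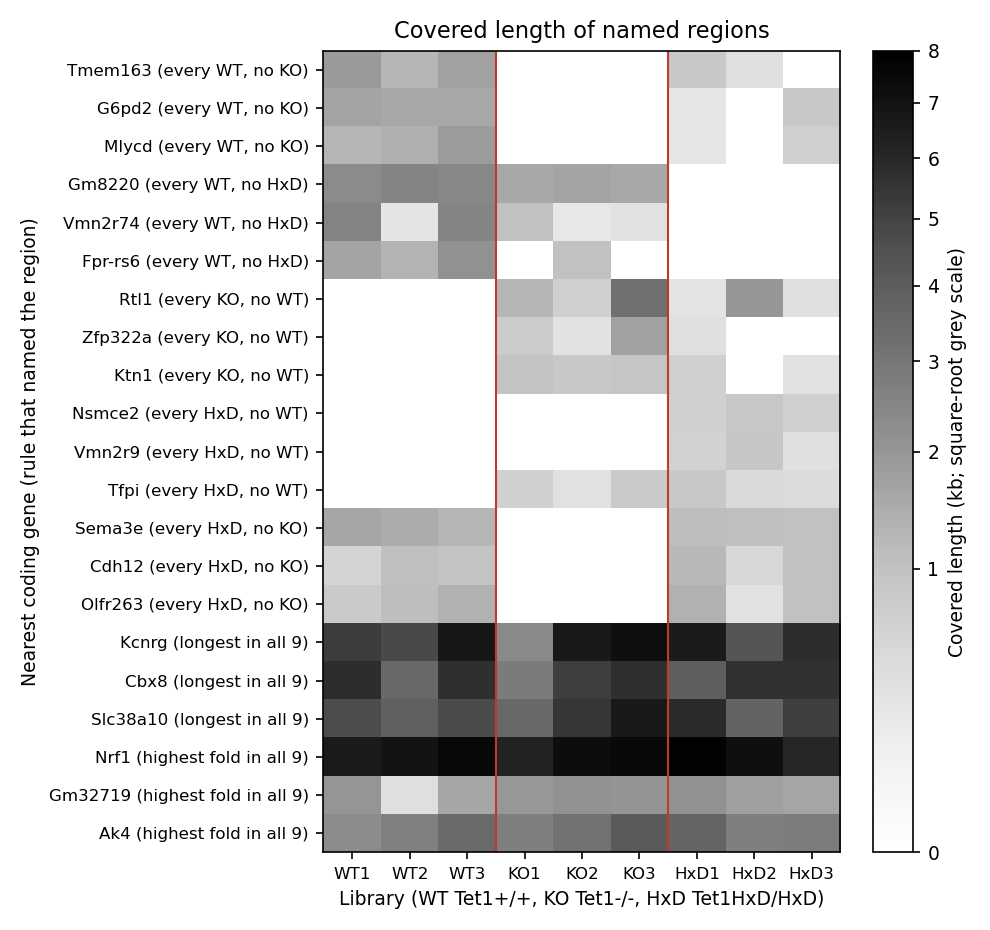
Covered length (kb, grey on a square-root scale) of 21 named regions in the 9 libraries, with 1 row per region labelled by its nearest coding gene. Rows for Tmem163, Mlycd and Sema3e are empty in the 3 KO libraries, the row for Gm8220 is empty in the 3 HxD libraries, and the row for Nrf1 is dark across all 9.

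Grouping the regions by nearest coding gene sums the covered length along a locus. Of 8516 genes that are nearest to any of the regions, 7138 were tested by limma. In KO 1518 (21.3%) had less covered sequence and 6 (0.0841%) more, and in HxD 2129 (29.8%) had less and 1 (0.0140%) more; here all genes tested are the background. No gene passed in KO against HxD (15 lower and 154 higher at an unadjusted p under 0.05). The lower calls in KO fell to 504 without KO replicate 1, 521 without KO replicate 3 and 616 without WT replicate 3, and in HxD to 449 without HxD replicate 2, 1021 without HxD replicate 3 and 848 without WT replicate 3. Higher calls in KO fell to 2 without WT replicate 1, WT replicate 2 or KO replicate 3, and those in HxD became 0 without WT replicate 3 or HxD replicate 2 and 2 without KO replicate 1 or HxD replicate 3. After centring, 543 were lower (7.61% of all genes tested) and 832 higher (11.7%) in KO and 533 lower (7.47%) and 987 higher (13.8%) in HxD, so the split between directions depends on the scale. With lists of equal length 376 were lower and 10 higher in KO and 198 lower and 1 higher in HxD.

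The 5 genes of smallest p were Cdh7, Gm11487, Vmn2r96, Brinp3 and Cdh19 in KO and Cdh7, Prl2c3, Gm11487, Slitrk6 and Rgs21 in HxD. Cdh7, a type II cadherin, had 19 regions, which covered 7732, 9548 and 9967 bp in WT, 1955, 1075 and 308 bp in KO and 1934, 916 and 2266 bp in HxD. The lowest WT library held more than 3 times as much as the highest mutant library, and the differences were -7969.7 ± 909 bp in KO and -7377 ± 909 bp in HxD (SE; limma, adjusted p = 0.000182 and 0.000267). Brinp3, a gene expressed mainly in neurons, had 16 regions with 6965, 7182 and 8430 bp in WT, 264, 1118 and 1813 bp in KO and 2074, 265 and 2072 bp in HxD. Cdh19, the neighbour of Cdh7, had 6389, 7105 and 7907 bp in WT, 346, 1727 and 1430 bp in KO and 1173, 361 and 2364 bp in HxD.

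The other genes of this rank were of several kinds. The 13 regions nearest to Gm11487 covered 6964, 7569 and 6861 bp in WT, 394, 1719 and 427 bp in KO and 1561, 0 and 2250 bp in HxD. Those of Vmn2r96, a vomeronasal receptor gene, covered 5742, 6792 and 8620 bp in WT, 636, 846 and 687 bp in KO and 2386, 1532 and 1653 bp in HxD. Those of Prl2c3, a gene of the prolactin family, covered 3607, 3409 and 3290 bp in WT, 971, 377 and 334 bp in KO and 329, 0 and 0 bp in HxD. At all 3 every mutant library lay below every WT library, and the families of Vmn2r96 and Prl2c3 hold near-identical copies, so their values are uncertain. Those of Rgs21 covered 7178, 5527 and 6713 bp in WT, 2237, 1736 and 0 bp in KO and 1128, 0 and 1196 bp in HxD.

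Slitrk1 and Slitrk6, which encode transmembrane proteins of neurite growth and synapse formation, showed the same order with more spread. Slitrk6 had 26 regions that covered 9214, 7798 and 12309 bp in WT, 935, 3257 and 340 bp in KO and 1668, 0 and 1832 bp in HxD. Slitrk1 had 8477, 6908 and 9889 bp in WT, 0, 3873 and 543 bp in KO and 4265, 0 and 3703 bp in HxD. Neither mutant reached WT at either gene, and KO replicate 2 and HxD replicates 1 and 3 kept the most (limma, adjusted p = 0.000333 and 0.000267 at Slitrk6, 0.00156 and 0.00405 at Slitrk1). These calls also passed after centring.

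Sox2, Dazl and Foxo1 were called in neither mutant. Sox2, a regulator of pluripotency and of neural progenitors, had 29 regions that covered 12519, 10881 and 14541 bp in WT, 4754, 12566 and 12845 bp in KO and 13997, 4808 and 6218 bp in HxD. The genotypes overlapped (limma, adjusted p = 0.459 and 0.183). Dazl, the germ cell RNA-binding protein, had 5923, 4427 and 8457 bp in WT, 4219, 4819 and 4135 bp in KO and 4056, 2961 and 3752 bp in HxD (adjusted p by limma, 0.208 and 0.0667). Foxo1, which spermatogonial stem cells require, had 10701, 7494 and 12513 bp in WT, 3992, 10078 and 8889 bp in KO and 9111, 5788 and 6966 bp in HxD (adjusted p by limma, 0.329 and 0.225).

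Kit, the receptor of stem cell factor, had 10671, 6593 and 11756 bp in WT, 4036, 5154 and 7905 bp in KO and 6540, 3399 and 4087 bp in HxD, and only the HxD difference was called (limma, adjusted p = 0.0809 and 0.0281). Dlk1, an imprinted gene of a growth regulator, had 8063, 6368 and 10676 bp in WT, 2452, 4810 and 2776 bp in KO and 6061, 2132 and 3677 bp in HxD, with both called lower (limma, adjusted p = 0.0138 and 0.0208). Rbm19, a ribosome biogenesis factor, was among the 8 genes with the most widely shared regions, with 16932, 16501 and 20095 bp in WT, 5735, 11667 and 7477 bp in KO and 11269, 8073 and 10013 bp in HxD, and it was called lower in both (limma, adjusted p = 0.00757 and 0.0155).

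Il1r1, the interleukin 1 receptor gene, led the 6 genes with more covered sequence in KO. Its regions had no peak in WT, 1085, 972 and 848 bp in KO and 572, 648 and 0 bp in HxD. Without the KO libraries Il1r1 would not have entered the limma fit, so its p-values are no support and are not given. Pecr, a peroxisomal reductase gene, had 684, 1116 and 2053 bp in WT, 3130, 3057 and 3001 bp in KO and 2289, 1732 and 2475 bp in HxD (adjusted p by limma, 0.034 and 0.212).

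**Figure D5:**
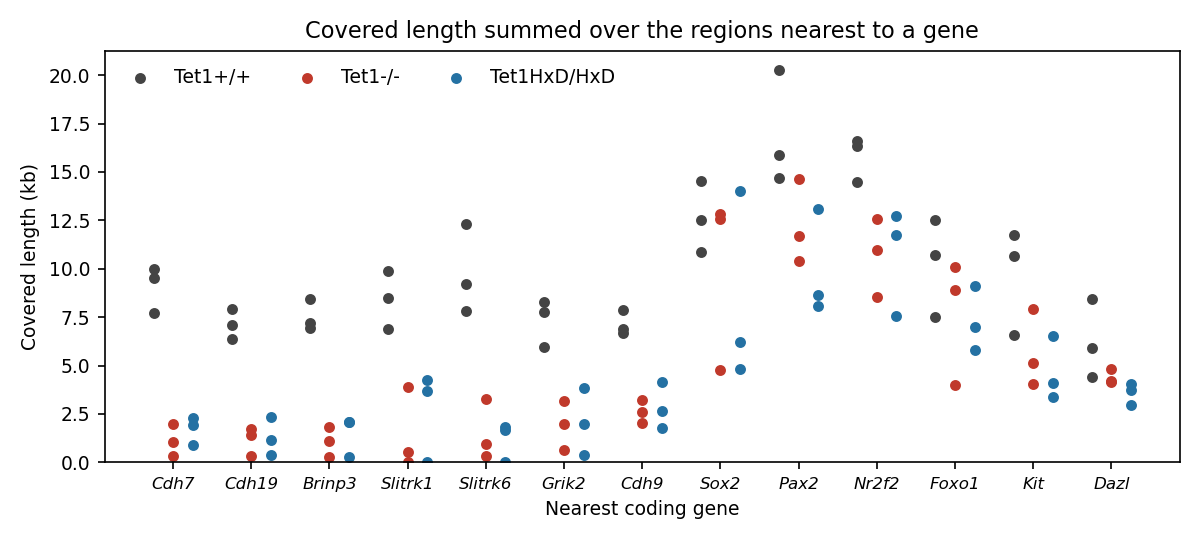
Covered length (kb) summed over the 10 to 100 kb regions nearest to each of 13 coding genes, 1 point per library, coloured by genotype. At Cdh7, Cdh19, Brinp3, Slitrk1, Slitrk6, Grik2 and Cdh9 the WT libraries lie above all mutant libraries. At Sox2 and Foxo1 both mutants overlap WT, and at Dazl KO overlaps WT while the HxD libraries lie below it.

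The gene lists were drawn up with results of these data known, so their direction is no independent evidence. Of 508 regions nearest to 53 neuronal synapse and adhesion genes, 161 were in every WT library, and 52 of these (32.3%) had no peak in KO and 39 (24.2%) none in HxD, against 10.3% and 10.9% of all the intergenic regions at this distance. Only 16 (3.15%) had a peak in all 9 libraries, against 10.2%. They covered 189 kb in WT (155 to 232 kb), 57.3 kb in KO (46.9 to 72.8 kb) and 56.2 kb in HxD (27.8 to 73.1 kb). Of 50 such genes tested, 37 were lower in KO (74%, against 21.3% of all genes tested) and 39 in HxD (78%, against 29.8%), and none was higher in either.

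Of the synapse-gene regions 52.6% lay in gaps of 1 Mb or more, against 7.48% of all the regions. Inside and outside such gaps the shares were close: 33.3% of 96 were absent from KO in the longest gaps and 30.8% of 65 in shorter ones, and 25% and 23.1% from HxD. Regions near developmental regulators in gaps of 1 Mb or more were absent in 10.3% of 39 in KO and 15.4% in HxD. All the intergenic regions in such gaps gave 17.6% and 16.5%. The excess of the synapse list over all regions was 22 percentage points in KO and 13.4 in HxD, and 24.6 in HxD without HxD replicate 3.

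Around 101 developmental regulator genes there were 879 regions, 309 of them in every WT library. Of those, 19 (6.15%) had no peak in KO and 27 (8.74%) none in HxD. All the intergenic regions at this distance gave 10.3% and 10.9%, which is also the background for the lists that follow. Of 97 genes tested 22 were lower in KO (22.7%, against 21.3% of all genes tested) and 42 in HxD (43.3%, against 29.8%). By region, 39 of 423 tested were shorter in KO (9.22%, against 11.6%) and 36 in HxD (8.51%, against 9.42%). The listed autosomal genes had 7.85 regions each here and 9.24 in the synapse list, against 2.08 over all coding genes. The part of this number in the shares of genes called was not tested. Near pluripotency and germ cell genes 4 of 71 regions were absent from each mutant (5.63%), near prospermatogonial and spermatogonial genes 1 of 47 (2.13%), and near signalling ligand genes 5 of 85 (5.88%). Near housekeeping genes 1 of 24 was absent from KO and 0 from HxD, and near imprinted genes 2 of 32 from each. Germ cell identity genes had 1 and 2 of 16 absent, Sertoli genes 2 and 1 of 20, Leydig and interstitial genes 2 and 4 of 31, and endothelial and blood genes 1 and 3 of 23.

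The shares that follow describe the promoters of the nearest genes. Of the nearest genes of regions kept in WT and KO, 75.2% of those with a known start site had a promoter peak in all 9 libraries, against 59.4% for regions that no KO library kept and 63.6% of all coding genes. For HxD the shares were 75.1% and 61.4%. Of 956 promoters next to the regions missing from KO, 6 had a peak in every WT and no KO library themselves, beside 36 of the 6697 promoters next to any of the intergenic regions.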

How the data were processed

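H3K4me3 was profiled by CUT&RUN in 9 libraries, 3 per genotype. The authors called peaks separately in each library, and the submitters' processing notes list MACS2 2.1.0 and Bowtie2 2.5.0 beside deepTools 3.5.1, bedtools 2.27.1, SAMtools 1.16.1, Trim Galore and the build mm10, with no roles. They do not say whether IgG served as the control. The deposited peak lists give for each peak a score, a fold enrichment, which is a linear ratio at the summit, and −log10 of p and q; the authors made all of these, and the fold is theirs wherever it is quoted. The lists hold no counts, so depth was not analysed, and a peak just under the authors' threshold counts as absent.

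Regions were built by merging the 688056 autosomal peaks. Per library, a region's value was its covered length, the highest fold of its peaks, and presence (any peak). Values per library were compared with exact permutation tests (two-sided for pairs of genotypes; 1680 arrangements for the F test). limma 3.58.1 (R 4.3.3, lmFit and eBayes with trend) compared covered length, log2 of the authors' fold (regions in all 9 libraries, no pseudocount) and covered length per nearest gene, with Benjamini-Hochberg adjustment. Python 3.11.15, numpy 2.4.6, pandas 2.3.3 and scipy 1.17.1 did the rest. Covered length in KO against WT was simulated over 78668 regions with normally distributed noise. A loss of 1000 bp in 100 regions was recovered in 0% and of 2000 bp in 25%, where the changed regions averaged more than 2000 bp. With 10000 regions changed by 1000 bp, shorter ones among them, 45.29% were recovered, beside 201 false calls. The intergenic regions were typically shorter and lacked a peak in many libraries, so these rates do not describe them.

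Alternatives were stricter peaks (−log10 q of at least 5), lists of equal length, a common minimum fold of 3.97, other distance bounds, merging within 500 bp, 25% coverage, centring, no filter, a replicate block and leaving out each library. Named regions are the 4 longest in each presence pattern, the 5 strongest and 5 longest in all 9 libraries, and the 5 of smallest p per direction and limma comparison (3 where none passed); named genes are the 8 nearest to the most regions seen in at least 3 libraries, those of smallest p by the same numbers and those with most regions in each gene list. The noncoding RNAs and the promoter and miRNA sequences (RefSeq, GRCm38.p6) were chosen after their values were seen; no genome was used, so no sequence around summits is shown. The regions and gene lists were chosen with earlier results of these data known.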

Additional observations from a re-analysis of the deposited data

Results flagged for a closer look

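The X chromosome was not part of any comparison above, and it also carried such regions. By the same rule 2276 of its 7452 merged regions (30.5%) lay outside coding genes at 10 to 100 kb, with 870, 605 and 1430 in the WT libraries, 468, 547 and 459 in KO and 364, 192 and 316 in HxD. All mutant libraries lay below the WT libraries. Of 376 present in every WT library, 94 (25%) had no peak in KO and 115 (30.6%) none in HxD. They are listed because they are signal in data that the comparisons did not use, and they were not tested.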

How the results depend on the processing

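The ratios of both mutants to WT in region number, covered length and relative fold kept their direction under every alternative run. The cause of the changes below was not tested. Under stricter peaks the exact permutation F test gave p = 0.0643 for region number and 0.0679 for the share of covered length, and limma called 18 longer regions and 2 genes with more covered sequence in KO. With lists of equal length the exact permutation F tests gave p = 0.364 for region number, 0.075 for covered length and 0.0393 for regions per region under 10 kb. Under these lists 465 regions had a peak in every WT library and none in KO, 302 in every WT and no HxD, 172 in every KO and no WT, 174 in every HxD and no WT, 91 in every KO and no HxD, and 181 in every HxD and no KO. limma then called 145 regions shorter and 10 longer in KO, 0 and 0 in HxD, 376 genes lower and 10 higher in KO and 198 lower in HxD, and Zfp64 turned from lower to higher in HxD by 1619 bp.

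Among regions at least 10 kb from any RefSeq gene, the 6 presence counts, in the same order, were 894, 914, 16, 5, 75 and 43. With no filter limma called 1499 regions shorter and 18 longer in KO, 1117 and 2 in HxD, and 10 genes higher in KO. Centred, it called 198 shorter and 91 longer regions in KO and 35 shorter in HxD, and 543 genes lower and 832 higher in KO and 533 and 987 in HxD.

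Replicate numbers recur in each genotype. Same-numbered libraries did not deviate together in covered length (9 correlations of -0.196 to 0.0866, none over 0.1). In covered length per nearest gene they ran from -0.508 to 0.364, with 2 of 9 over 0.1, so not every pair passed. WT replicate 3, for example, correlated best with HxD replicate 1. The main fits therefore used no pairing. Deviations were taken from the mean of each genotype's few libraries, so this check cannot decide whether same-numbered libraries shared a litter or day. With the replicate block limma called 1275 regions shorter and 9 longer in KO and 816 and 2 in HxD; its other counts stayed within 1.5 times. Centring with the replicate block gave 173 and 66 regions in KO and 38 shorter in HxD, and 455 and 484 genes in KO and 393 and 470 in HxD.

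Leaving out single libraries gave these ranges. The exact permutation F test p ran from 0.0107 to 0.0714 for region number, 0.0214 to 0.107 for covered length, 0.0214 to 0.114 for its share and 0.00357 to 0.396 for median fold. limma called 0 to 2272 regions shorter and 0 to 25 longer in KO, 0 to 1955 and 0 to 4 in HxD, 0 to 1 on fold in KO, 504 to 1907 genes lower and 2 to 7 higher in KO, and 449 to 2626 and 0 to 2 in HxD. Presence counts, in the order above, ran from 1497 to 3256, 1573 to 3005, 35 to 201, 15 to 67, 143 to 673 and 92 to 396. Of the checks on single named genes 614 kept their call and 174 lost it; of those on named regions 443 kept it and 306 lost it. Depth was not analysed, so a missing peak sets no upper limit on the mark.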
